A study of Mus musculus with 3 samples.

Results

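HOX genes encode transcription factors that bind DNA through a shared domain, the homeodomain. The described set held every gene symbol of the form Hoxa, Hoxb, Hoxc or Hoxd followed by a number. This gave 30 members among the 22100 gene symbols of the count tables, spread over the 4 HOX complexes of the mouse on chromosomes 6 (Hoxa), 11 (Hoxb), 15 (Hoxc) and 2 (Hoxd). The annotation lists 39 HOX genes, and the other 9 (Hoxa11, Hoxb13, Hoxc11 to Hoxc13 and Hoxd10 to Hoxd13) were not analysed here. Levels of the 30 members were taken from single-cell transcriptomes of whole small intestine from untreated wild-type mice at 3 stages, the embryonic days E15.5 and E17.5 and the day P7 after birth. Each stage is 1 library of Chromium 3′ v2 chemistry, which counts unique molecular identifiers (UMIs) at transcript ends. Per the labels' protocols, live cells were sorted either as positive for Epcam or as negative for Epcam, CD31 and CD45, so the shares of epithelial and other cells were set by the sort and not by the tissue. The sources used here name no strain or sex and do not say how many animals went into a library, and stage and library cannot be told apart.

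HOX genes of a complex lie in a fixed order and are numbered by paralog group. Members of a group in different complexes derive from 1 ancestral gene and have similar homeodomains. Low-numbered genes are switched on earlier and further forward in the embryo than high-numbered ones, so the set of active HOX genes marks a position along the body and the gut. In the gut, enteric neurons and glia come from vagal and sacral neural crest that migrates in, smooth muscle, interstitial cells of Cajal and fibroblasts come mostly from the splanchnic mesoderm, and the epithelium comes from endoderm, so the 3 germ layers reach the same wall with separate HOX histories.

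The homeobox, the stretch that encodes the homeodomain, is shown for Hoxa5 and Hoxc8, because these members separate neural-like from mesenchymal cells in opposite directions. Each sequence is 180 bases from the GENCODE M21 transcript, read 5′ to 3′, with bases 124 to 174, which encode most of the recognition helix that contacts DNA, in capitals.
Hoxa5: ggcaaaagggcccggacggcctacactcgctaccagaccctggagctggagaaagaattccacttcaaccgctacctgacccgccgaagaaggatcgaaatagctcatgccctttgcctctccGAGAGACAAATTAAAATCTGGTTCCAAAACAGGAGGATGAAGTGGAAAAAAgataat
Hoxc8: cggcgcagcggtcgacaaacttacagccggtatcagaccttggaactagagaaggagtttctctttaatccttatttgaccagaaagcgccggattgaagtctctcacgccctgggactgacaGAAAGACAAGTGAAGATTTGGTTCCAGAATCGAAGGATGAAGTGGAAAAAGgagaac
Hoxa5 and Hoxc8 had the same base at 118 of these 180 positions (65.6%). In GRCm38, Hoxa5 lies at chr6:52201754-52204587 on the minus strand, Hoxb5 at chr11:96303336-96306121 on the plus strand, Hoxc5 at chr15:102967443-103017429 on the plus strand, Hoxd4 at chr2:74711929-74729160 on the plus strand and Hoxc8 at chr15:102990607-102994111 on the plus strand. All are protein-coding genes. The annotated span of Hoxc5 contains Hoxc6, Hoxc8 and Hoxc9, and that of Hoxa3 contains Hoxa4, Hoxa5 and Hoxa6. Hoxd3 and Hoxd4 share 62.3% and 52.3% of their exon bases with each other or with Gm28230 on the same strand, so reads can have been split between them and their separate values are uncertain.

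The libraries held 93501273 UMIs over 8447 cells at E15.5, 94023160 over 11598 cells at E17.5 and 116038115 over 8391 cells at P7. Cells were grouped within each library by clustering without the HOX genes, and clusters were named by marker genes as fibroblast-like, smooth-muscle-like, Cajal-like (interstitial cells of Cajal), neural-like (enteric neurons, glia and their progenitors) or epithelial-like. The classes held, in the order E15.5, E17.5 and P7, 2691, 4407 and 582 fibroblast-like cells, 1526, 1330 and 546 muscle-like cells, 473, 388 and 34 Cajal-like cells, 1041, 1979 and 242 neural-like cells and 1377, 1574 and 6066 epithelial-like cells. Every marker on the fibroblast (12) and epithelial (12) lists was highest in its own class at each stage, and 17 or 18 of 18 neural, 11 or 12 of 12 muscle and 7 to 9 of 10 Cajal markers were. The same lists had named the clusters, so these counts describe the 5 classes and do not test them. The barcode lists of the 3 libraries hold the same 8447 names, but 0 cell profiles were identical between libraries.

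Levels are in CPM, the standard scaling of a gene's summed UMIs by the total UMIs of its class, with an exact Poisson 95% interval where one is printed. Where 3 values follow each other for a class, they stand in the order E15.5, E17.5 and P7. There were no replicates, so no test between stages or classes exists, and every interval covers counting error only. Ratios between stages or classes carry an exact conditional binomial interval. A member is called higher or lower where it had 20 or more UMIs on at least 1 side, differed by 1.5-fold or more, and its interval excluded no change. Counts at transcript ends do not scale with gene length, so each gene is compared between classes and stages rather than with other genes, apart from shares of the summed HOX UMIs, which add the genes as counted.

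Summed over the 30 members, HOX UMIs were most abundant in neural-like cells, at 2400 CPM (95% interval 2370.5 to 2429) at E15.5, 1746 CPM at E17.5 and 1860 CPM at P7. Fibroblast-like cells held 603, 439 and 430 CPM, muscle-like cells 595, 439 and 408 CPM, and Cajal-like cells 655, 439 and 674 CPM, the last from 34 cells (95% interval 549 to 819). These 3 mesenchymal classes lay close to each other at E15.5 and E17.5. Epithelial-like cells held 29.1, 37.7 and 37.9 CPM. At 10 CPM or more, 16 of 30 members were present in fibroblast-like cells at E15.5 (37.7% of all gene symbols reached that level there), 15 at E17.5 (37.5%) and 13 at P7 (39.7%). In neural-like cells 14 (39.2%), 16 (39.4%) and 14 (42.4%) members did so, in muscle-like cells 16 (36.5%), 13 (32.6%) and 12 (38.2%), in Cajal-like cells 16 (37.1%), 15 (35.9%) and 15 (40.4%), and in epithelial-like cells 0 (35.8%), 0 (35%) and 1 (36.4%). Hoxb2, Hoxa3, Hoxb3, Hoxa4, Hoxb4, Hoxa5 and Hoxb5 reached 10 CPM at every stage in the neural-like class and in each mesenchymal class. Hoxc6, Hoxa7 and Hoxc8 did so in the mesenchymal classes alone, and Hoxd3 and Hoxd4 in the neural-like class alone. Hoxb7 also reached 10 CPM at every stage in each mesenchymal class. Elsewhere it did so in neural-like cells at E17.5 and P7 and in epithelial-like cells at P7.

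**Figure D1:**
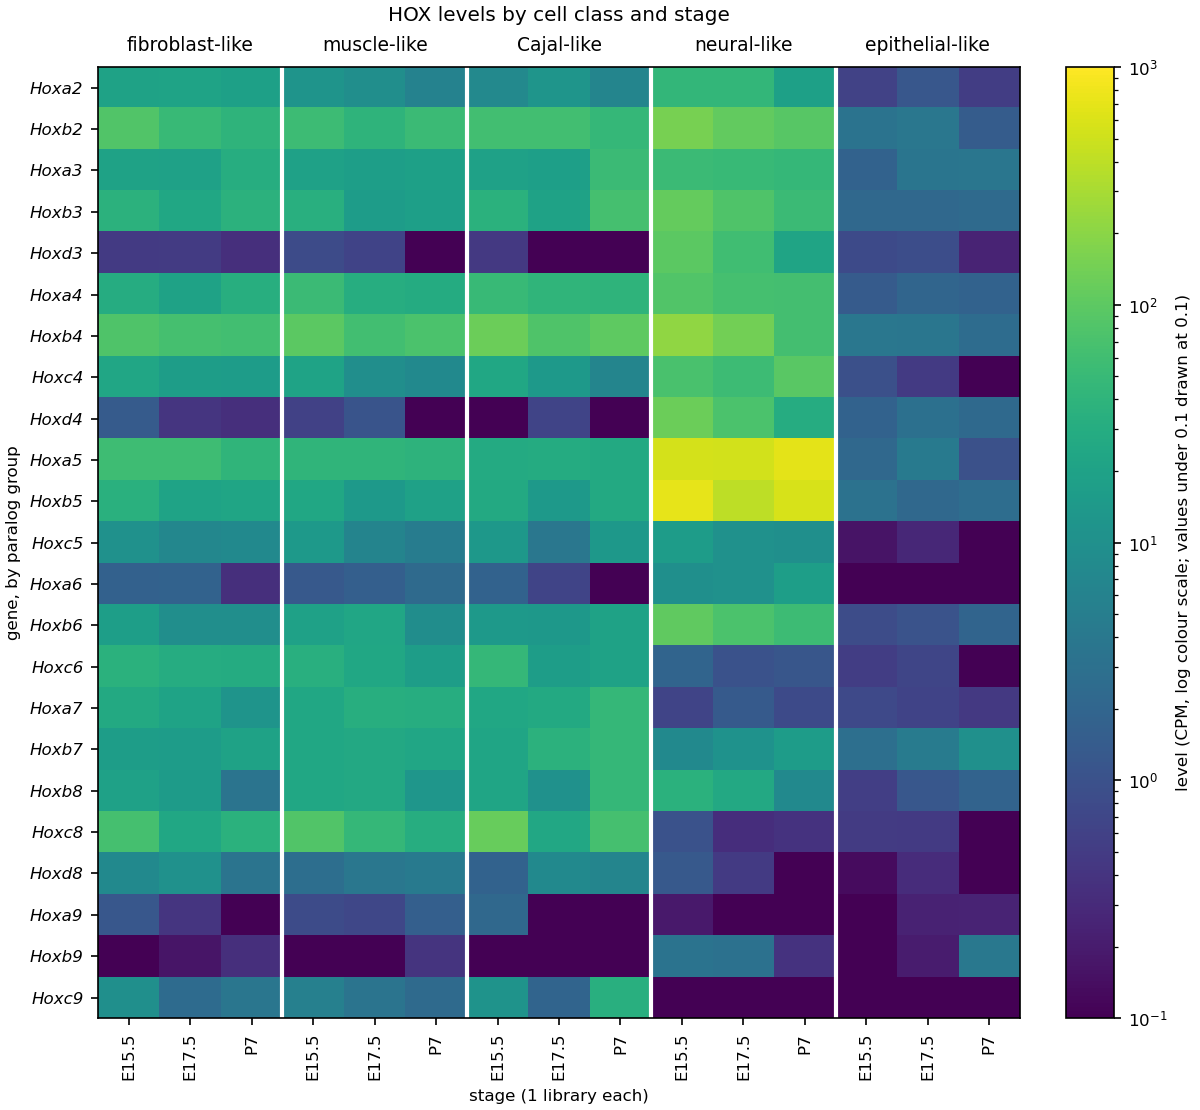
Level of 23 HOX genes of group 2 and above (rows, by paralog group) in each cell class at each stage (columns), in CPM on a log colour scale with values under 0.1 drawn at 0.1. Hoxa5 and Hoxb5 are brightest in neural-like cells. Hoxc6, Hoxa7 and Hoxc8 are dark there and brighter in the mesenchymal classes, where Hoxc9 is low in most columns. In the epithelial-like columns only Hoxb7 at P7 reaches 10 CPM.

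The members of group 1 to group 4 pattern the hindbrain and neck levels of the body axis. Of group 1, Hoxb1 had 11 UMIs in the 3 libraries together and Hoxd1 had 21 UMIs. Hoxb2, a regulator of hindbrain segments, was found in all classes outside the epithelium: 83.4, 50.1 and 40.2 CPM in the fibroblast-like class, 56.1, 39.3 and 52.5 CPM in muscle-like cells and 151, 110 and 91.6 CPM in neural-like cells. Its neural level was the highest of the classes at each stage. In Cajal-like cells it held 60.7, 61.9 and 46.7 CPM. Hoxb4, which also acts in blood stem cells, held 78.7, 66.3 and 60.7 CPM in the fibroblast-like class, 98.0, 60.9 and 72.9 CPM in muscle-like cells, 126, 80.2 and 100 CPM in Cajal-like cells and 217, 138 and 63.6 CPM in neural-like cells. Its neural level was the highest in the embryo and lay within the range of the other classes at P7. Hoxb3 held 37.7, 24.3 and 37.5 CPM in the fibroblast-like class, 33.0, 16.5 and 18.0 CPM in muscle-like cells, 36.1, 20.2 and 66.7 CPM in Cajal-like cells and 112, 79.0 and 52.6 CPM in neural-like cells, so the distance between neural-like and fibroblast-like cells was smaller at P7. Hoxa3 stayed between 17.48 and 30.7 CPM in fibroblast-like and muscle-like cells and between 46.8 and 52.9 CPM in neural-like cells. Hoxa4 held 30.4, 20.2 and 32.7 CPM in the fibroblast-like class, 54.2, 31.5 and 28.8 CPM in muscle-like cells, 48.9, 41.1 and 40.0 CPM in Cajal-like cells and 82.4, 65.6 and 63.6 CPM in neural-like cells. Hoxc4 held 23.5, 16.9 and 16.0 CPM in the fibroblast-like class, 20.9, 9.59 and 8.01 CPM in muscle-like cells, 23.8, 14.3 and 6.67 CPM in Cajal-like cells and 70.1, 54.4 and 94.0 CPM in neural-like cells. Its neural level was highest at P7. Hoxa2 held 44.4, 44.0 and 18.7 CPM in neural-like cells and 19.9, 20.6 and 19.1 CPM in fibroblast-like cells, so both classes were level at P7.

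Hoxd3 and Hoxd4 separated the classes most sharply among these groups. Hoxd4 reached 125 CPM (95% interval 119 to 132) in neural-like cells at E15.5, 73.9 CPM at E17.5 and 30.02 CPM at P7. The same gene stood at 1.40, 0.42 and 0.34 CPM in fibroblast-like cells, at 0.59, 1.08 and 0 CPM in muscle-like cells, and at 0, 0.65 and 0 CPM in Cajal-like cells. Neural-like cells thus held 89.5-fold more Hoxd4 than fibroblast-like cells at E15.5 (log2 ratio 6.48, 95% interval 5.98 to 7.04). Hoxd3 held 99.0, 59.2 and 21.4 CPM in neural-like cells and at most 0.81 CPM in each mesenchymal class. A non-coding gene of the Hoxd complex, Haglr, had a like distribution, with 17.2, 12.5 and 14.4 CPM in neural-like cells and at most 0.044 CPM in the mesenchymal classes. For scale, 18 neural marker genes stood in fibroblast-like cells at a median of 0.458%, 0.681% and 0.188% of their neural level. Their ranges were 0.182% to 9.58%, 0.240% to 8.96% and 0 to 10.9%. Hoxd4 stood at 1.12% at E15.5, within that range. The part of free RNA in the fibroblast-like Hoxd4 level was not tested.

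Group 5 held most of the HOX UMIs of the neural-like class, summed over its clusters. Hoxa5, a gene needed for lung and gut development, held 544 CPM (95% interval 530 to 558), 528 CPM (517 to 540) and 697 CPM (665 to 730) in neural-like cells. Its levels in fibroblast-like cells were 57.8, 57.9 and 41.9 CPM, in muscle-like cells 40.9, 41.2 and 38.4 CPM, and in Cajal-like cells 27.9, 28.7 and 26.7 CPM. Hoxb5, which regulates Ret in enteric neural crest, held 715 CPM (700 to 732), 403 CPM (393 to 413) and 570 CPM (541 to 600) in neural-like cells against 34.9, 21.1 and 22.5 CPM in fibroblast-like cells. This is a 20.5-fold difference at E15.5, 19.1-fold at E17.5 and 25.3-fold at P7. These values are of the whole class and do not hold for each of its clusters. At P7 its cluster led by Fabp7, a gene of glia and progenitors, held 84.5 CPM of Hoxa5 (48.3 to 137) and 26.4 CPM of Hoxb5 (8.58 to 61.7). Fibroblast-like cells held 41.9 and 22.5 CPM at that stage. Hoxc5, the third member, held only 16.4, 10.7 and 9.75 CPM in neural-like cells and 10.5, 7.06 and 7.84 CPM in fibroblast-like cells. Group 5 as a whole took 53.2%, 53.9% and 68.6% of the HOX UMIs of neural-like cells and 17.1%, 19.6% and 16.8% of those of fibroblast-like cells. In the class as a whole, Hoxa5 and Hoxb5 were lowest at E17.5 and higher again at P7. The stage of the highest class level was P7 for Hoxa5 and E15.5 for Hoxb5. Neuronal clusters taken singly did not all follow this order, as given below.

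In groups 6 to 8, which pattern the trunk, the class with more of a gene changed along the complexes. Hoxb6 held 106, 74.1 and 54.6 CPM in neural-like cells against 17.7, 9.40 and 9.55 CPM in the fibroblast-like class, 19.6, 23.4 and 9.21 CPM in muscle-like cells and 14.6, 13.7 and 20.02 CPM in Cajal-like cells. Hoxa6 held 9.88, 10.7 and 17.2 CPM against 1.75, 1.80 and 0.34 CPM. Hoxc6 went the other way, with 36.5, 30.2 and 28.6 CPM in fibroblast-like cells, beside 1.96, 1.01 and 1.17 CPM in neural-like cells. Hoxa7 held 26.6, 21.1 and 11.6 CPM in the fibroblast-like class, 24.3, 32.4 and 31.2 CPM in muscle-like cells and 0.65, 1.34 and 0.78 CPM in neural-like cells. Hoxc8, a gene of the thoracic level, held 65.2 CPM (95% interval 61.9 to 68.6), 24.1 CPM and 35.8 CPM in the fibroblast-like class, 81.9, 46.2 and 30.8 CPM in muscle-like cells and 116, 24.8 and 66.7 CPM in Cajal-like cells. Neural-like cells had 11, 5 and 1 UMIs of Hoxc8, or 1.02, 0.34 and 0.39 CPM. At E15.5 that was 63.6-fold less than in fibroblast-like cells (log2 ratio -5.99, 95% interval -7.00 to -5.15) and equal to 1.57% of the fibroblast-like level, beside a median of 1.45% (range 0.576 to 29.6, the highest being Postn) for 6 mesenchymal genes (Col1a1, Col1a2, Col3a1, Col6a3, Dcn and Postn). The part of free RNA in the neural Hoxc8 level was not tested. Hoxb8 had the opposite order to Hoxc8 against fibroblast-like cells: it held 36.0, 25.9 and 7.80 CPM in neural-like cells against 19.8, 15.6 and 3.41 CPM there. The order did not hold against every mesenchymal class. Cajal-like cells held 22.8, 10.4 and 46.7 CPM of Hoxb8, the last from 7 UMIs. At P7 the muscle-like clusters of 429, 84 and 33 cells held 8.25, 29.0 and 4.68 CPM, the last from 1 UMI.

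The high-numbered members were scarce. Hoxc9 held 9.80, 2.55 and 3.75 CPM in fibroblast-like cells, beside 11.4, 1.96 and 33.4 CPM in Cajal-like cells, the last from 5 UMIs, and had 0 UMIs in neural-like cells at every stage. Taking a floor of 3 UMIs in the neural-like class, the neural level at E15.5 was 35.0-fold lower than that of fibroblast-like cells. Hoxd8 stood at 8.00, 10.7 and 3.41 CPM in fibroblast-like cells and at or under 1.30 CPM in neural-like cells. Hoxb9 held 3.35, 3.09 and 0.39 CPM in neural-like cells. Hoxa9 stayed at or under 2.28 CPM in the 5 classes. Hoxd9, Hoxa10, Hoxc10 and Hoxa13, markers of hindgut and caudal levels, had 8, 7, 13 and 7 UMIs in the 3 libraries together.

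Over all members, 23 could be compared between neural-like and fibroblast-like cells at E15.5, of which 16 were higher in neural-like cells and 7 lower, beside 27.5% higher and 24.4% lower among all genes compared. The median log2 ratio was 1.37 for the members and 0.03 for all genes. At E17.5 it was 16 higher and 5 lower of 23 (29% and 22.4% of all genes), and at P7 11 higher and 3 lower of 19 (35.7% and 23.5%), with member medians of 1.13 and 0.96 against 0.12 and 0.23 for all genes. The 7 lower members at E15.5 were Hoxc6, Hoxa7, Hoxb7, Hoxc8, Hoxd8, Hoxa9 and Hoxc9. Every measured member of groups 2 to 5 was higher in neural-like cells at that stage. In the plot along the complexes, the neural and fibroblast lines cross between group 6 and group 7 in Hoxa and Hoxb, between group 5 and group 6 in Hoxc, and between Hoxd4 and Hoxd8 in Hoxd.

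**Figure D2:**
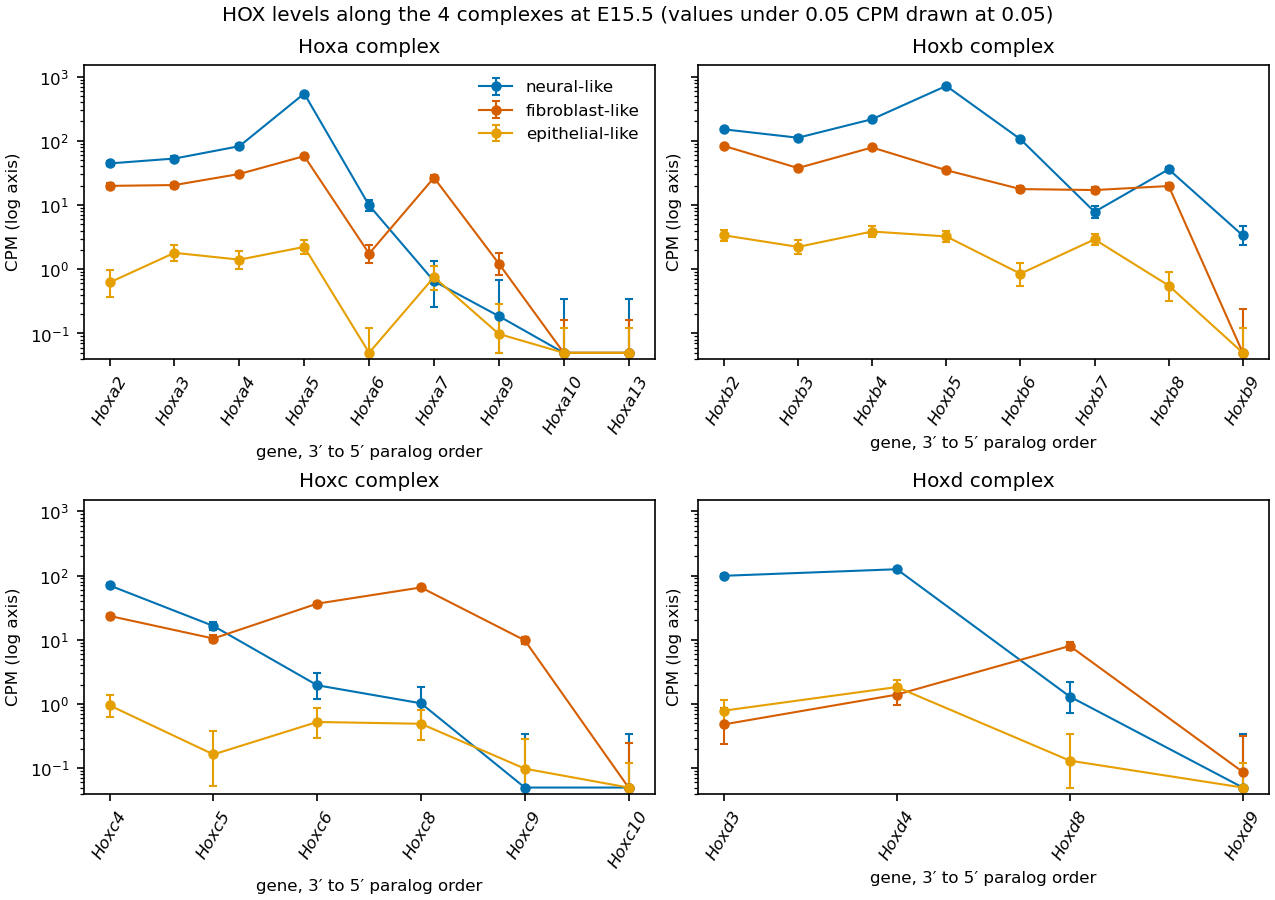
Levels at E15.5 in neural-like, fibroblast-like and epithelial-like cells (CPM, log axis; bars, 95% Poisson interval), with the genes of each complex from group 2 up in paralog order along the x axis. The neural line lies above the fibroblast line up to Hoxa6, Hoxb6, Hoxc5 and Hoxd4, and below it at Hoxa7, Hoxb7, Hoxc6, Hoxc8 and Hoxd8, while Hoxb8 and Hoxb9 lie above it again.

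The 4 complexes were used in different proportions. The Hoxc complex held 24.1%, 18.4% and 21.4% of HOX UMIs in fibroblast-like cells and 3.73%, 3.80% and 5.66% in neural-like cells, in which Hoxc4 made up most of it. The Hoxd complex held 1.65%, 2.69% and 0.95% in fibroblast-like cells against 9.44%, 7.68% and 2.77% in neural-like cells, so its neural share was smallest at P7. Hoxb was the largest complex in fibroblast-like cells (47.9%, 46.2% and 45.2%) and in the embryonic neural-like cells (56.2% and 48.3%), and at P7 Hoxa and Hoxb were near equal there (45.5% and 46.1%).

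The mesenchymal classes differed from each other by 1 to 9 called members, depending on the pair and the stage. Muscle-like cells against fibroblast-like cells had 1 higher and 4 lower of 21 members at E15.5 (12.2% and 19.8% of all genes), 6 higher and 3 lower of 20 at E17.5 (11.5% and 40.9%) and 2 higher and 5 lower of 16 at P7 (16.1% and 23.4%). At E15.5 Hoxa4 was higher in muscle-like cells (54.2 against 30.4 CPM), and Hoxa2, Hoxd4, Hoxd8 and Hoxc9 were lower. The 6 higher at E17.5 were Hoxa4, Hoxb6, Hoxa7, Hoxb7, Hoxb8 and Hoxc8, where the median of all genes was shifted by -0.47 on the log2 scale and that of the members by -0.15. Hoxd8 was lower in muscle-like than in fibroblast-like cells at both embryonic stages, at 2.80 against 8.00 CPM and at 3.85 against 10.7 CPM. Cajal-like cells against fibroblast-like cells had 3 higher and 3 lower of 21 at E15.5 (12.5% and 16.3% of all genes), 2 higher and 3 lower of 20 at E17.5 (13% and 14.5%) and 1 higher and 0 lower of 15 at P7 (13.3% and 8.4%). Hoxa4 was higher and Hoxa2 and Hoxa5 were lower at both embryonic stages in that comparison. Against muscle-like cells, Cajal-like cells had 1 higher and 0 lower of 18 at E15.5 (13.5% and 11.6%), namely Hoxc9. At E17.5 it was 1 higher, Hoxb2, and 3 lower, Hoxb6, Hoxb8 and Hoxc8, of 18 (29.3% and 10.1%). At P7 3 of 14 were higher, Hoxa3, Hoxb3 and Hoxb8, and 0 lower (13.1% and 7.53%).

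From E15.5 to E17.5, 9 of 22 measured members fell and 1 rose in fibroblast-like cells, beside 11.9% lower and 13.6% higher among all genes compared. The member median was -0.41 against -0.08 on the log2 scale for all genes. The fall was largest for Hoxc9 (log2 ratio -1.94, 95% interval -2.38 to -1.53), Hoxd4 (-1.74, from 32 to 10 UMIs), Hoxa9 (-1.55) and Hoxc8 (-1.44, -1.58 to -1.30). Hoxb6, Hoxb2, Hoxb5, Hoxb3 and Hoxa4 also fell, with log2 ratios from -0.91 to -0.59. The fibroblast-like class was made of 6 clusters at E15.5 and of 8 at E17.5. The part of this makeup in the fibroblast-like ratios was not tested. The fall of Hoxc8 differed between clusters. It was under 1.5-fold in those led by Bmp3 and Nrg1 (79.6 and 60.02 CPM) and larger in those led by Cxcl13, as given below. In muscle-like cells 8 of 18 fell and 0 rose (29.6% lower and 6.85% higher among all genes), and the median of all genes itself shifted by -0.36 there, against -0.49 for the members. Scaled by that median gene, 3 muscle members were lower and 2 higher. In Cajal-like cells 8 of 16 fell and 1 rose (8.5% and 7.96% of all genes), with Hoxc8 at -2.23 (95% interval -2.76 to -1.73) and Hoxc9 at -2.55. The member median there was -0.69 against -0.07. Hoxc8 and Hoxc9 were thus lower at E17.5 in all 3 mesenchymal classes, with log2 ratios of -0.82 and -0.68 in muscle-like cells before the shift of the median gene is taken off.

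In neural-like cells over the same step, 5 of 20 measured members fell and 0 rose (6.97% lower and 9.92% higher among all genes): Hoxb5 (log2 ratio -0.83), Hoxd4 (-0.76), Hoxd3 (-0.74), Hoxb4 (-0.65) and Hoxc5 (-0.62). The member median was -0.41 against -0.06 for all genes. Hoxa5 differed by less than 1.5-fold, at 544 and 528 CPM.

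Between E17.5 and P7 other members moved. The fibroblast-like class was also made of different clusters at these stages, led by Cxcl13, Col6a5 or Vcam1 at E17.5 and by Mfap4 and Mgp (392 of 582 cells) at P7. In fibroblast-like cells 3 of 20 rose (19.1% of all genes), Hoxa3, Hoxb3 and Hoxa4, with log2 ratios of 0.65, 0.63 and 0.70, and 3 fell (10% of all genes), Hoxb8 (-2.19, 95% interval -3.26 to -1.30), Hoxd8 (-1.65) and Hoxa7 (-0.87). The member median was -0.03 against 0.09 for all genes. Scaled by the median gene, 1 member rose. The fall of Hoxa7 was lost when a P7 cluster of 328 cells, led by Adamdec1 and Ccl11 and left unnamed, was counted, a choice made after seeing the data, as fibroblast-like (log2 ratio 0.07): Hoxa7 stood at 42.4 CPM and Hoxb8 at 5.21 CPM in it. Neural-like cells showed 7 members lower and 2 higher of 19 (14.1% and 30.1% of all genes), while the median of all genes was 0.21 and that of the members -0.20. Hoxb8 (-1.73), Hoxd3 (-1.46), Hoxb9 (-1.40 at a floor of 3 UMIs, since P7 held 1 UMI), Hoxd4 (-1.30), Hoxa2 (-1.23), Hoxb4 (-1.12) and Hoxb3 (-0.59) fell, and Hoxc4 (0.79) and Hoxa6 (0.68) rose. Scaled by the median gene, 0 neural members rose.

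**Figure D3:**
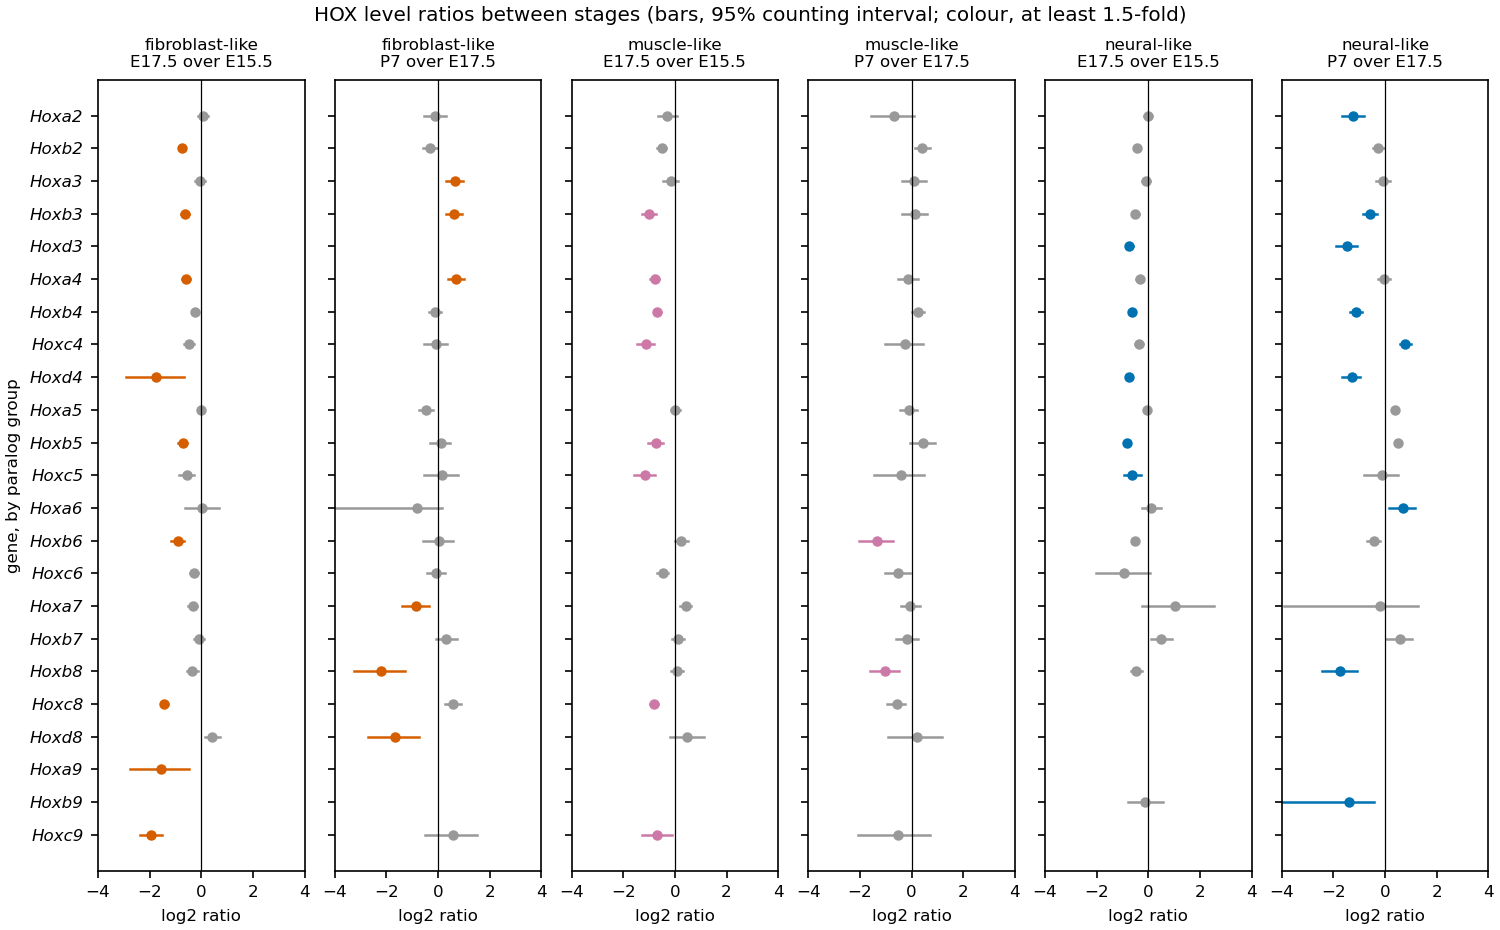
Log2 ratio of the level of each named HOX gene of group 2 and above (rows) between consecutive stages in fibroblast-like, muscle-like and neural-like cells, with 95% counting intervals; intervals that pass the axis end at -4 are drawn to its edge. Coloured points passed 1.5-fold with an interval excluding 0, and most coloured points of the E17.5 over E15.5 panels lie left of 0.

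In muscle-like cells 2 of 18 fell and 0 rose from E17.5 to P7 (9.94% lower and 30.1% higher among all genes), with medians of -0.15 for the members and 0.30 for all genes. They were Hoxb6 (-1.34) and Hoxb8 (-1.03). The muscle-like class was made of different cells at the 2 stages: 462 of its 546 cells at P7 lay in 2 clusters led by Eln, and 84 lay in a cluster led by Actg2, the actin of visceral muscle, which led most muscle-like cells before birth. The P7 clusters differed in HOX content. The Actg2-led cluster held 95.4 CPM of Hoxc8, 73.3 CPM of Hoxa4, 37.5 CPM of Hoxc6 and 29.0 CPM of Hoxb8, and the main Eln-led cluster of 429 cells held 11.2, 15.9, 9.43 and 8.25 CPM. Hoxb4 had the opposite order, at 40.9 and 84.3 CPM. Within visceral clusters alone (those led by Actg2 or, for 1 at E17.5, by Myh11), 10 of 18 members fell and 1 rose at E17.5 (26.8% and 6.41% of all genes). There 3 members rose at P7, Hoxa4 (log2 ratio 1.36), Hoxc8 (1.18) and Hoxc6 (0.75), and 0 fell (15% and 4.95% of all genes). The fall of Hoxb8 in the whole class (-1.03) was then 0.08.

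Cajal-like cells at P7 had 3 members higher and 0 lower of 13 (10.7% and 6.53% of all genes), Hoxb3 (1.72), Hoxa3 (1.55) and Hoxc8 (1.43), with medians of 0.48 for the members and 0.19 for all genes. These rest on 10, 8 and 10 UMIs in 34 cells, and all 3 had the opposite sign when cells were gated one by one on their markers (-0.53, -0.18 and -0.74). The summed epithelial markers stood at 78.9 CPM in Cajal-like cells at E17.5 and at 2596 CPM at P7 (614 CPM of Epcam alone), beside 11305 CPM in epithelial-like cells at P7. Epithelial-like cells at P7 held 2.39 CPM of Hoxb3, 3.71 CPM of Hoxa3 and 0.052 CPM of Hoxc8, below the 66.7, 53.4 and 66.7 CPM of Cajal-like cells.

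Among neural-like clusters, Hoxa5 and Hoxb5 varied over more than a factor of 10. At E15.5 Hoxa5 stood at 1093 CPM and Hoxb5 at 1137 CPM in the cluster led by Stmn2 and Prph, 2 genes of differentiated neurons. In the cluster led by Cartpt and Vip, neuropeptide genes, they stood at 543 and 990 CPM. The 2 clusters led by Fabp7, a gene of glia and progenitors, held 110 and 146 CPM of Hoxa5 and 106 and 167 CPM of Hoxb5. The same order was seen at E17.5, with 1467 CPM of Hoxa5 and 899 CPM of Hoxb5 in neurons led by Tac1 and Penk and 93.8 and 57.8 CPM in the main Fabp7-led cluster. At P7 the neuronal cluster of 176 cells held 746 and 613 CPM, and the Fabp7-led cluster of 66 cells held 84.5 CPM (95% interval 48.3 to 137) and 26.4 CPM (8.58 to 61.7). Both neuronal P7 values were below those of the Stmn2-led cluster at E15.5 and the Tac1-led cluster at E17.5. For Hoxa5 the P7 value was above that of the Cartpt-led cluster. In the whole class, Hoxa5 was instead highest at P7, and Hoxb5 was higher at P7 than at E17.5. The plot of both genes against Fabp7 shows the difference between neuronal and Fabp7-led cells over 14 clusters, which are groups of cells of 3 libraries and not replicates.

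**Figure D4:**
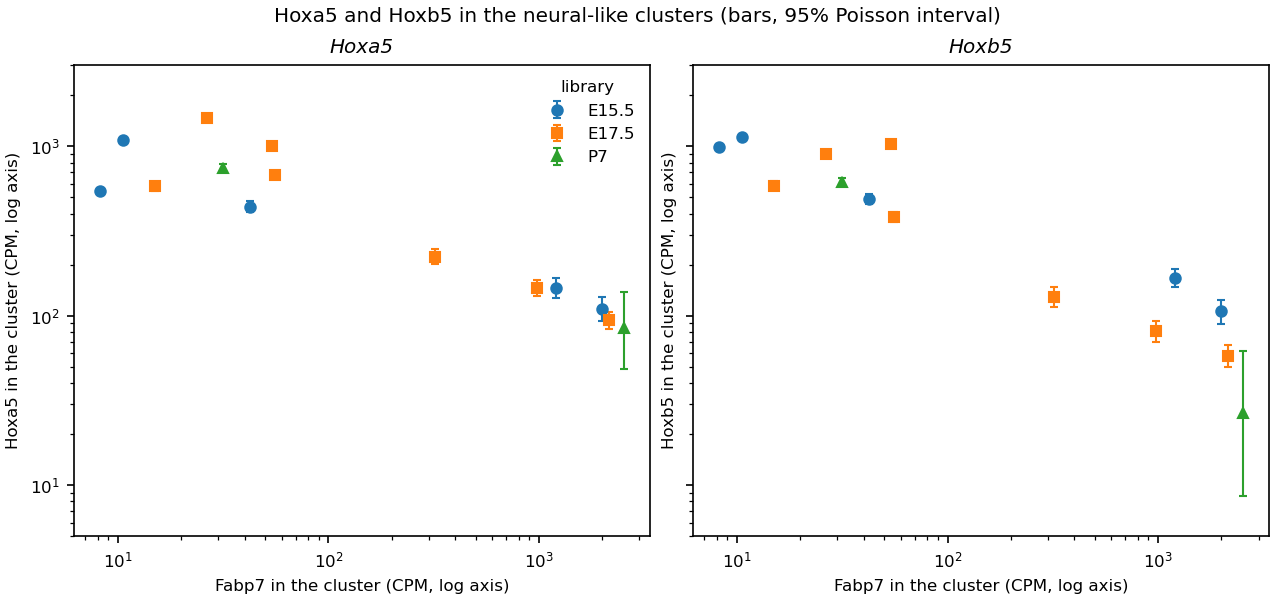
Level of Hoxa5 (left) and Hoxb5 (right) against that of Fabp7 in each neural-like cluster of the 3 libraries (CPM, log axes; bars, 95% Poisson interval). The 5 clusters with 978 CPM of Fabp7 or more held 84.5 to 146 CPM of Hoxa5, and the 8 clusters with 55.5 CPM or less held 439 to 1467 CPM.

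The cell makeup of the neural-like class differed between stages. Fabp7-led clusters made up 203 and 144 of its 1041 cells at E15.5, 637 of 1979 at E17.5, where a dividing cluster of 274 cells led by Metrn and Fabp7 added to them, and 66 of 242 at P7. Class levels sum UMIs, so a cluster weighs in them by its UMIs and not by its cells. At P7 the Fabp7-led cluster held 189260 of the 2564805 UMIs of the class, and the neuronal cluster held the rest. The part of this makeup in the stage ratios of the class was not tested, but the neuronal clusters can be set side by side. Hoxd4 held 105 to 140 CPM in the 2 neuronal clusters at E15.5, 78.0 to 99.6 CPM in the 3 neuronal clusters at E17.5 and 29.9 CPM in neurons at P7. Hoxb4 held 242 and 266 CPM, then 169 to 203 CPM, then 64.4 CPM. Both were thus lower at P7 within neurons too. Hoxc4 held 81.3 and 92.8 CPM, then 56.9 to 124 CPM, then 97.7 CPM, which do not separate by stage.

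In fibroblast-like cells a cluster led by Bmp3 and Nrg1, genes of the subepithelial Pdgfra-rich fibroblasts, was set beside the others after its values were seen. Of the 8 members of groups 6 to 8, 7 were highest in it among the fibroblast-like clusters at E15.5 and 7 at E17.5. The exceptions were Hoxa6 at E15.5 (2.29 CPM there and at most 2.30 CPM elsewhere) and Hoxb7 at E17.5 (24.6 against 34.1 CPM in a cluster led by Mfap5). The margin was small for Hoxc8 at E15.5 (79.6 against 79.1 CPM in a dividing cluster) and for Hoxd8 (11.4 against 11.1 CPM). How many of all genes were highest in this cluster was not counted, so the counts have no background share. For Hoxa7, Hoxb6, Hoxb7, Hoxb8, Hoxc6 and Hoxd8 at E15.5 the next highest cluster was led by Ccl11 and Adamdec1, with Bmp3 among its leading genes. At E15.5 Hoxa7 stood at 51.03 CPM (95% interval 42.8 to 60.4) in the cluster led by Bmp3 and Nrg1. It stood at 15.6 CPM (12.6 to 19.1) in the largest cluster, led by Cxcl13 and Ogn. Hoxb8 stood at 41.9 against 14.3 CPM, Hoxc6 at 59.8 against 33.4 CPM and Hoxc8 at 79.6 against 56.4 CPM. Hoxc9, of group 9, stood at 22.8 against 4.44 CPM. At E17.5 the corresponding clusters held 49.2 and 13.9 CPM of Hoxa7, 42.7 and 12.3 CPM of Hoxb8, 47.3 and 25.8 CPM of Hoxc6, 10.003 and 0.39 CPM of Hoxc9 and 60.02 and 15.6 CPM of Hoxc8. Hoxa4 did not share the pattern, at 22.1 against 32.1 CPM at E15.5. At P7 no fibroblast-like cluster was led by Bmp3, so this cluster could not be followed to that stage.

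Upstream sequence is shown for 3 members that differ between these cells, Hoxd4 (neural-like) and Hoxa7 and Hoxb8 (highest in the Bmp3-led fibroblasts), as the 250 bases before the RefSeq start in GRCm38.p6, read 5′ to 3′ on the gene's strand. Capitals mark matches, on either strand, to TTTATG, the core bound by CDX factors, which regulate HOX genes, to AGGTCA, the half-site of retinoic acid receptors, or to TGATTNAT, the joint HOX and PBX site.
Hoxd4, chr2:74721728-74721977, plus strand: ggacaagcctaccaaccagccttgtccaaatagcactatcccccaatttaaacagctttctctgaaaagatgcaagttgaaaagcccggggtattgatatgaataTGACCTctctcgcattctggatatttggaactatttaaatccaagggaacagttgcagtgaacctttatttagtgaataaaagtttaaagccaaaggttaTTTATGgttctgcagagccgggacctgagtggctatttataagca
Hoxa7, chr6:52218574-52218823, minus strand: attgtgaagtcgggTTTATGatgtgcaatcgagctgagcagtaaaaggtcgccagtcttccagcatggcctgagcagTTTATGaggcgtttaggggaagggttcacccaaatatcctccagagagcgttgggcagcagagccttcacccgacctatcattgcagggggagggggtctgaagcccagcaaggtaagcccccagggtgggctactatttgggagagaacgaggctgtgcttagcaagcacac
Hoxb8, chr11:96281655-96281904, plus strand: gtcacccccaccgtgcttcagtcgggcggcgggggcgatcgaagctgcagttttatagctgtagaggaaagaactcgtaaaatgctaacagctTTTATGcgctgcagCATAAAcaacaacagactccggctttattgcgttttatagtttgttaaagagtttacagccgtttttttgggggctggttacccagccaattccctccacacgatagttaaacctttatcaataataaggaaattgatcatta
RefSeq gave 18 such windows for 17 of the 30 members. TTTATG was found in 4 of the 18 and in 10.8% of 32851 promoter windows, AGGTCA in 5 and in 14.0%, and TGATTNAT in 1 and in 2.82%. Hoxa7 and Hoxb8 each hold 2 matches to TTTATG and Hoxd4 holds 1. The members shown are thus all among the 4 with that match, and Hoxd3 is the other. They do not stand for the members that differ between classes: the Hoxa5 window held 0 matches to each of these motifs. A match describes these letters only and was not tested for binding.

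The epithelium, which lines the gut, held little HOX RNA. Against fibroblast-like cells, 20 of 22 members were lower and 0 higher at E15.5 (35.6% and 28% of all genes), 20 lower and 1 higher of 22 at E17.5 (39.2% and 28%), and 15 lower and 2 higher of 20 at P7 (30.7% and 24.5%). The member medians were -4.53, -3.71 and -4.08 against -0.15, -0.22 and -0.25 for all genes. Free RNA in the droplets bears on such levels: the 6 mesenchymal genes stood in epithelial-like cells at a median of 1.72% (range 1.01 to 1.89) of their fibroblast-like level at E15.5, then 1.29% (1.16 to 2.02), then 0.0849% (0.0635 to 0.117) at P7. At E15.5 Hoxa5 stood at 3.86% of its fibroblast-like level, Hoxb2 at 4.05% and Hoxa7 at 2.83%, near those values but above their range. Relative to the level in all cells of that library, the 6 mesenchymal genes stood at 2.85% to 4.47%. On that measure Hoxa5 lay below their range, at 2.39%, and Hoxb2 (5.95%) and Hoxa7 (5.49%) lay above it. Against its neural level Hoxa5 was at 0.41%, where 18 neural genes had a median of 0.512% (range 0.141 to 138.8). The part of free RNA in its epithelial level was not tested. Hoxb7 was at 17.1%, 29.0% and 50.03% of its fibroblast-like level, far above the mesenchymal genes at each stage.

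Within the epithelium 6 of 15 members rose and 0 fell from E15.5 to E17.5 (11.7% and 15% of all genes): Hoxb8, Hoxa5, Hoxa3, Hoxa2, Hoxd4 and Hoxb7, all with levels under 5 CPM. The member median was 0.30 against -0.15 for all genes. Of the 6 mesenchymal genes 5 were higher in the epithelium at E17.5 too, with a median log2 ratio of 0.80, and their part in the rise of the members was not tested. At P7 4 of 16 rose (19.7%) and 4 fell (15%), with medians of -0.07 and 0.07. Those that fell were Hoxa5 (log2 ratio -2.15), Hoxd3 (-1.84), Hoxb2 (-1.41) and Hoxa2 (-1.20), while all 6 mesenchymal genes fell in the epithelium with a median of -2.51, and the part of free RNA in the fall of the members was not tested. The epithelial-like class was made of 6 clusters at E17.5 and of 18 at P7, which included the Fabp6-led, Edn1-led crypt-type and Cck-led clusters, and Fabp6 stood at 3.48 CPM in the class at E17.5 and at 112 CPM at P7. The part of this makeup in the stage ratios was not tested. Those that rose were 4 neighbours in the Hoxb complex, Hoxb9 (4.32, 95% interval 3.09 to 5.95), Hoxb7 (1.11, 0.83 to 1.40), Hoxb6 (0.91) and Hoxb8 (0.61). Hoxb9 went from 0 UMIs at E15.5 and 5 UMIs at E17.5 to 392 UMIs at P7 (4.05 CPM, 95% interval 3.66 to 4.47), while fibroblast-like cells at P7 had 1 UMI of it. Hoxb7 held 2.92, 4.66 and 10.1 CPM in the epithelium. The Hoxb complex took 58.6%, 50.9% and 71.4% of epithelial HOX UMIs, and Hoxc 7.66%, 5.37% and 0.71%. Hoxd4 was the member higher than in fibroblast-like cells at E17.5 (2.96 against 0.42 CPM), and Hoxd4 and Hoxb9 were so at P7, on 1 fibroblast UMI each.

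Epithelial clusters at P7 differed in these genes. Hoxb7 stood at 26.9 CPM (95% interval 22.5 to 32.0) in the cluster led by Fabp6, the ileal bile acid binding protein, and at 24.8 CPM (21.5 to 28.5) in one led by Afp and Lgmn that held 311 CPM of Fabp6. In clusters led by Mme and by Apoc2 it stood at 3.39 and 2.71 CPM. Gata4, a gene of the proximal intestine, had the reverse order, with 7.196 and 5.10 CPM in the former pair and 41.5 and 33.1 CPM in the latter. Hoxb9 was instead highest in the crypt-type cluster led by Edn1, Olfm4 and Lgr5 (15.8 CPM, 13.3 to 18.6) and in the 96 hormone-producing cells led by Cck and Pyy (21.9 CPM, 13.6 to 33.5). The latter also held 40.7 CPM of Hoxb8 (29.0 to 55.7), against 6.35 CPM in the hormone-producing cells led by Chga and Tph1 and at most 5.01 CPM in the other epithelial clusters. Hoxb7 and Hoxb9 therefore peaked in different clusters: Hoxb9 stood at 0.25 CPM in the Afp-led cluster, from 2 UMIs. Hoxd4 stood at 7.61 CPM in the Fabp6-led cluster and at 0.16 CPM in the Mme-led one.

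**Figure D5:**
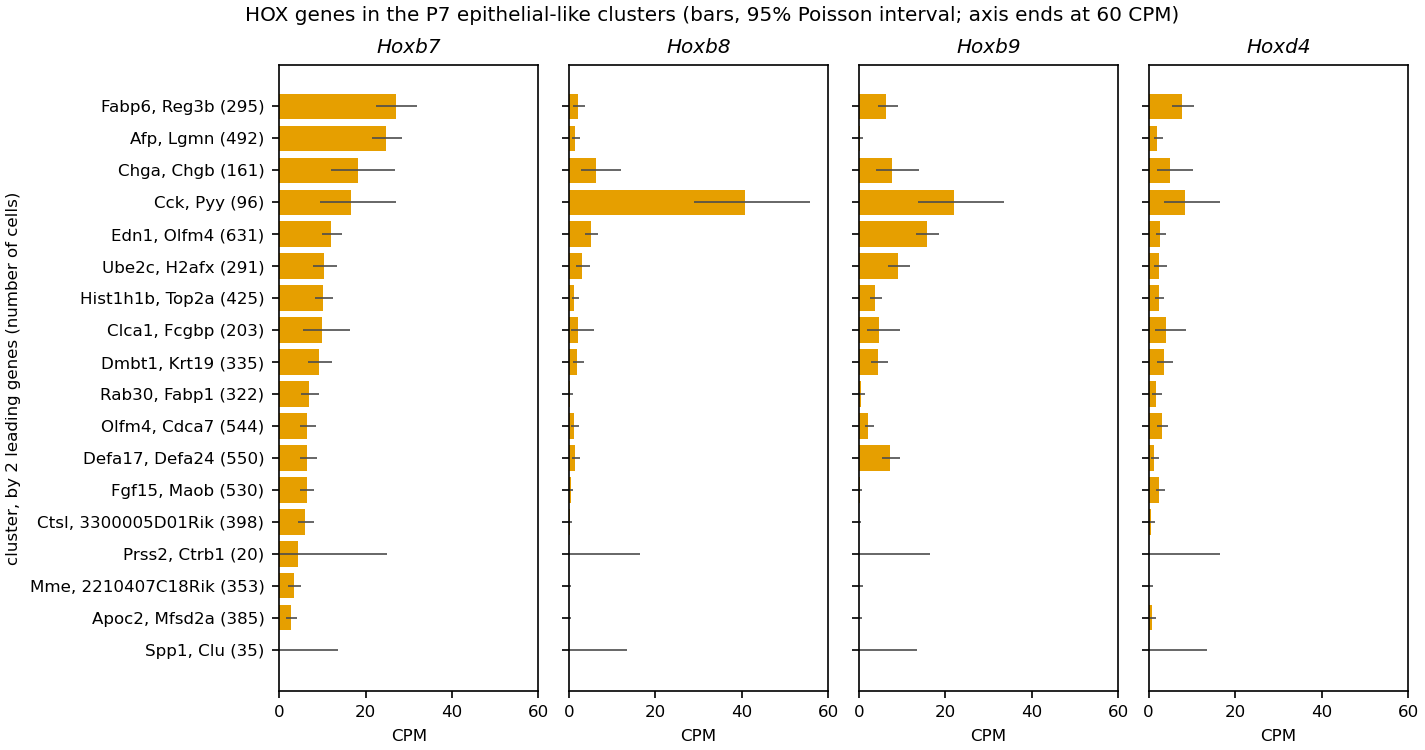
Level of Hoxb7, Hoxb8, Hoxb9 and Hoxd4 in each of 18 epithelial-like clusters at P7 (CPM; bars, 95% Poisson interval; cell numbers beside the names). Hoxb7 is highest in the Fabp6-led and Afp-led clusters, Hoxb9 in the Edn1-led and Cck-led clusters, and Hoxb8 in the Cck-led cluster.

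Per cell, depth differs between classes, so each cell was thinned to 2000 UMIs and shallower cells were left out (at most 156 in a class, in fibroblast-like cells at E17.5). A HOX UMI of any member was then found in 91.9%, 82.7% and 84.4% of neural-like cells, 68.2%, 54.8% and 59.0% of fibroblast-like cells, 65.7%, 57.9% and 53.6% of muscle-like cells, 70.7%, 54.8% and 81.8% of Cajal-like cells and 5.49%, 5.99% and 7.00% of epithelial-like cells. Unthinned, the shares were 99.4%, 94.8% and 88.4%, then 96.4%, 83.1% and 82.8%, then 96.1%, 94.6% and 74.2%, then 92.2%, 79.6% and 97.1%, and 30.8%, 30.4% and 33.2%. The thinned Cajal-like share at P7 rests on 33 cells (exact 95% interval 64.5 to 93.02), an interval that contains the neural-like share. A thinned neural-like cell held 3.00, 2.16 and 2.11 different members on average, against 1.13, 0.82 and 0.86 in a fibroblast-like cell.

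Detection of some members was related among fibroblast-like cells. At E15.5, 29.5% of the 129 thinned cells with a Hoxa7 UMI also held Hoxc8 (exact 95% interval 21.8 to 38.1), against 9.43% (8.32 to 10.6) of those without one. At E17.5 these shares were 20.7% of 164 cells and 3.79%. Hoxa5 showed the opposite relation: of 282 cells with a Hoxa5 UMI at E15.5, 2.48% held Hoxc8 (1.00 to 5.05), against 11.3% (10.1 to 12.7) without, and 1.77% held Hoxa7, against 5.18%. At E17.5, 2.43% of 452 cells with Hoxa5 held Hoxc8, against 4.69%. Hoxb8 cells held Hoxc8 at 9.82% against 10.4% at E15.5. For scale, Hoxc8 was found in 0 of 1030 thinned neural-like cells and in 0.147% of thinned epithelial-like cells at E15.5 (median depths of 8608 and 21000 UMIs before thinning, 7624 in fibroblast-like cells). In neural-like cells Hoxb5 was found in 74.1% of cells with Hoxa5 and in 41.7% of those without at E15.5, and in 61.7% and 32.6% at P7. These are shares of cells of 1 library, and cells are not replicates.

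HOX proteins bind DNA with TALE cofactors of the PBX, MEIS and PKNOX families. Of 9 such genes, 8 were lower and 0 higher in muscle-like cells at E17.5 than at E15.5 (29.6% and 6.85% of all genes), with a median log2 ratio of -0.81 against -0.36 for all genes. In fibroblast-like cells 1 was lower and 0 higher (11.9% and 13.6%), and in neural-like cells 3 lower and 0 higher (6.97% and 9.92%). Meis2 held 1195, 645 and 814 CPM in Cajal-like cells, 349, 226 and 403 CPM in fibroblast-like cells, beside 13.3, 10.1 and 0.39 CPM in neural-like cells. The epithelium was lower than fibroblast-like cells for 7, 8 and 9 of the 9 (35.6%, 39.2% and 30.7% of all genes), and higher for 0 (28%, 28% and 24.5%). Of the CDX and other ParaHox genes, 3 of 6 were in the tables, and all 3 were higher in epithelial-like than in fibroblast-like cells at each stage, beside the same 28%, 28% and 24.5% of all genes. Cdx2 held 169, 143 and 163 CPM there and 0.83, 0.54 and 6.82 CPM in fibroblast-like cells, where the summed epithelial markers also stood highest at P7, at 568 CPM, and their part in this level was not tested.

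Polycomb and trithorax proteins keep HOX genes silent or active. Of 14 such genes, 13 could be compared in fibroblast-like cells between E15.5 and E17.5, of which 1 was higher and 2 lower (13.6% and 11.9% of all genes). In muscle-like cells 0 were higher and 5 of 13 lower (6.85% and 29.6%), and in neural-like cells 0 higher and 1 of 14 lower (9.92% and 6.97%). From E17.5 to P7, 2 of 14 were higher and 4 lower in neural-like cells (30.1% and 14.1%). Ezh2, the methyltransferase of Polycomb complex PRC2, held 174, 105 and 63.1 CPM in fibroblast-like cells, beside 130, 143 and 26.5 CPM in neural-like cells. Of 13 listed non-coding genes of the HOX complexes 8 were in the tables, of which 4 of 7 measured at E15.5, 6 of 7 at E17.5 and 3 of 5 at P7 were higher in neural-like than in fibroblast-like cells (27.5%, 29% and 35.7% of all genes), and 0, 1 and 0 were lower (24.4%, 22.4% and 23.5%). Hotairm1, in the Hoxa complex, held 49.2, 42.9 and 24.6 CPM in neural-like cells, 32.5, 48.7 and 27.6 CPM in muscle-like cells and 19.8, 19.1 and 10.9 CPM in fibroblast-like cells.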

How the data were processed

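Droplet libraries of sorted small-intestinal cells, 1 per stage, were used as the authors deposited them, as UMI counts per gene and cell. Per the submitters' processing notes these were made with Cell Ranger 7.2.0 on mm10 (GRCm38), and how cells were called is not given in the sources used here. A minimum of 500 genes and at most 15% mitochondrial UMIs removed 0 cells. Scrublet (expected rate 6%) marked 243, 453 and 389 doublets, which were removed. With scanpy 1.11.5 each library was scaled to 10000 UMIs per cell and clustered (2000 variable genes without HOX genes, 30 components, 15 neighbours, Leiden resolution 1), and clusters were named from marker lists. UMIs were summed per class and stage. Members were named individually at 50 CPM in any class or past 1.5-fold in a step. The members and lists were chosen with earlier results of these data known. Clusters without a clear class (861, 802 and 532 cells) entered no class. The procedure for ratios was tested on simulated data. Alternatives covered doublets, filters, resolution, joint clustering, gating of single cells, weighting and scaling. A ratio against 0 to 2 UMIs used a floor of 3 UMIs. Promoters came from RefSeq (GRCm38.p6) and homeoboxes from GENCODE M21 transcripts. Results of some genes are not reported here.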

Additional observations from a re-analysis of the deposited data

Results flagged for a closer look

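Several members moved in opposite directions in different classes over the same step, each past 1.5-fold with its counting interval clear of 0. With 1 library a stage, the difference was not tested in any of these cases. From E15.5 to E17.5 the log2 ratio of Hoxd4 was -1.74 in fibroblast-like and -0.76 in neural-like cells but 0.69 in epithelial-like cells, and that of Hoxb8 was -1.13 in Cajal-like and 1.12 in epithelial-like cells. From E17.5 to P7 Hoxb3 stood at 0.63 in fibroblast-like and 1.72 in Cajal-like cells and at -0.59 in neural-like cells. The Cajal-like value rests on 10 UMIs in 34 cells at P7 and turned to -0.53 when cells were gated one by one on their markers. Hoxb6 stood at -1.34 in muscle-like and 0.91 in epithelial-like cells over that step. Hoxb8 stood at -2.19, -1.03 and -1.73 in fibroblast-like, muscle-like and neural-like cells and at 0.61 in epithelial-like cells. The muscle-like value turned to 0.079 in visceral clusters alone and to 0.39 with libraries clustered together. Hoxb9 stood at -1.40 in neural-like cells, with a floor of 3 UMIs at P7, and at 4.32 in epithelial-like cells.

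Immune-like cells, which enter no comparison, formed 1 cluster of 169 cells at E17.5. Hoxa9, a gene of blood progenitors, held 11.9 CPM there, from 29 UMIs, above its level in the 5 described classes. The cluster also held RNA of genes typical of other classes: 416 CPM of Epcam, 1023 CPM of Actg2 and 205 CPM of Stmn2. The source of the Hoxa9 UMIs was not tested.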

How the results depend on the processing

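No paired analysis was possible because each stage is 1 library, and for the same reason no replicate could be left out. Of 2208 stage ratios under alternatives, 2050 stayed called or stayed uncalled, 83 gained a call, 67 lost it and 8 called ratios reversed. The direction of ratios without a call was not compared. Of 2952 levels under alternatives 275 lay outside the 95% counting interval of the reported level, and 187 of 224 counts of members called and 148 of 153 counts of members expressed stayed within 1.5 times. The counts of members called that changed are listed below for fibroblast-like, muscle-like and neural-like cells only. Those of Cajal-like and epithelial-like cells are within the totals but are not listed, so their stability is not shown. The cause was not tested for the changes below. With a minimum of 20 CPM, 8 members (from 15) were expressed in Cajal-like cells at E17.5, 7 (from 12) in muscle-like cells at P7 and 0 (from 1) in the epithelium at P7, where keeping doublets also gave 0. Gating single cells gave 9 (from 15) in Cajal-like cells at P7. For fibroblast-like cells, members higher at E17.5 went from 1 to 0 with gating or a minimum of 50 UMIs, and at P7 from 3 to 5 with libraries clustered together, 6 with gating and 1 when scaled by the median gene. For muscle-like cells, members higher at E17.5 went from 0 to 1 with doublets kept or visceral clusters alone and to 2 when scaled by the median gene, which left 3 lower (from 8). At P7 they went from 0 to 1 with doublets kept or at least 1 UMI in each library, 2 with joint clustering and 3 in visceral clusters. Those lower at P7 went from 2 to 0 with joint clustering or visceral clusters and to 5 with median scaling or a stricter cell filter. For neural-like cells, members higher at E17.5 went from 0 to 1 with gating or median scaling, those lower from 5 to 3 with median scaling or resolution 0.5, and those higher at P7 from 2 to 1 with doublets kept and 0 with gating or median scaling. Reversed log2 ratios from E17.5 to P7 were, under gating in Cajal-like cells, Hoxa3 (-0.18), Hoxb3 (-0.53) and Hoxc8 (-0.74). Hoxa7 in fibroblast-like cells reversed with joint clustering (0.18), gating (0.25) and the Adamdec1-led cluster added (0.068, chosen after seeing the data), and Hoxb8 in muscle-like cells with joint clustering (0.39) and visceral clusters (0.079). Depth limits the P7 Cajal-like values, which rest on 34 cells.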

Other observations

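Pericyte-like cells, the contractile cells of small vessels, entered no comparison. At E15.5 (235 cells) they held 77.6 CPM of Hoxb4, 65.6 CPM of Hoxb2, 53.6 CPM of Hoxa5 and 28.8 CPM of Hoxc8. At E17.5 their larger cluster (407 cells) held 74.3, 58.6, 50.6 and 14.2 CPM.

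At P7 a cluster of 131 cells led by Npnt and Mfap5, left unnamed, held 97.1 CPM of Hoxc8, 87.3 CPM of Hoxb4 and 28.0 CPM of Hoxa7.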
